A study of Mus musculus with 21 samples.

Results

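The genes described here are 39 genes of the extracellular matrix and of profibrotic signalling, named by symbol in a list that was written with earlier results of these data known. They comprise 10 matricellular proteins, 6 fibre components, 5 small leucine-rich proteoglycans, 5 lysyl oxidases, 6 proteases and protease inhibitors, 3 TGF-β ligands and 4 genes that mark or drive cardiac fibroblasts. All 39 were found among the 55450 genes of the count table, all 39 passed the filter on low counts that left 17309 genes and none had a count of 0 in any mouse.

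Cardiac fibroblasts make most of the extracellular matrix of the heart. TGF-β, stored in the matrix as a latent complex and released by proteases or by force, drives fibroblasts towards an activated state in which they secrete matricellular proteins such as periostin and tenascin C, cover collagen fibrils with small proteoglycans and crosslink them with lysyl oxidases. Matrix metalloproteinases cut the matrix and tissue inhibitors (TIMPs) block them. Interstitial fibrosis is a known feature of hypertrophic cardiomyopathy.

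RNA was measured in left ventricles of male 129S6/SvEv mice in 4 groups. WT-CD (n = 5) and WT-EMPA (n = 5) were wild-type littermates on a control diet or on the same diet with empagliflozin, an inhibitor of the sodium-glucose cotransporter SGLT2, at 0.15 mg per g of diet. R403Q-CD (n = 7) and R403Q-EMPA (n = 4) carried 1 mutant allele of Myh6 (Myh6+/R404Q, called R403Q), a missense change in the α-myosin heavy chain that is present in every cell and acts in cardiomyocytes, which alone make this protein in quantity. Diets began at 9 to 10 weeks of age. RNA was taken at 12 weeks of age, after a brief course of diet and before hypertrophy, per the series text and the study's methods. The sample labels give 16 weeks of diet, which is the length of the whole experiment. Each mouse gave 1 library. The mouse names carry a number that several mice share. It may mark a cage or litter, but the labels do not say what it is. No number occurred on both diets, so that the diet and what the number marks cannot be told apart, whereas both genotypes shared most numbers.

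Libraries held 23491535 to 43539684 counts. A missense change leaves the transcript countable, so the counts do not check the genotype. Myh6 took 3.97 to 4.5% of the counts in WT-CD, 1.95 to 3.99% in R403Q-CD, 3.98 to 5.19% in WT-EMPA and 3.13 to 4.11% in R403Q-EMPA. The summed level of 5 ventricular cardiomyocyte markers was between 45890 and 83110 CPM (counts of a gene relative to the library total after TMM scaling) in all 21 mice. R403Q-CD replicate 2 stood apart and had both the lowest of these sums and the lowest Myh6 share. The same mouse was the highest of all 21 for 31 of the 39 genes, and R403Q-CD replicate 5 came next for 24. The main counts and medians are therefore given with and without them.

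To show what lies in front of the genes with the largest difference between R403Q-CD and WT-CD, the 250 bases upstream of the start sites of Spp1, Tnc and Timp1 are printed from RefSeq (GRCm38.p6), 5′ to 3′ on the strand of the gene. RefSeq promoter entries were found for 22 of the 39 genes. Capitals mark matches, on either strand, to short motifs, which do not overlap here. The motif searched for AP-1, a stress-responsive factor, was TGANTCA. For SMAD factors, which carry the TGF-β signal, the motif was CAGACA. For TEAD factors, which answer to mechanical load, it was GGAATG. The TATA box was searched as TATAAA.
Spp1, chr5:104434861-104435110, plus strand: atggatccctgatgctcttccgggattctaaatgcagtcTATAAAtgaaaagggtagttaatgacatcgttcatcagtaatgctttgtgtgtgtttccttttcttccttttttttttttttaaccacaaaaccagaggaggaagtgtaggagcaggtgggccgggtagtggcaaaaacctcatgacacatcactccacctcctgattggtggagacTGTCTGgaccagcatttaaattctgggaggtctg
Tnc, chr4:64047016-64047265, minus strand: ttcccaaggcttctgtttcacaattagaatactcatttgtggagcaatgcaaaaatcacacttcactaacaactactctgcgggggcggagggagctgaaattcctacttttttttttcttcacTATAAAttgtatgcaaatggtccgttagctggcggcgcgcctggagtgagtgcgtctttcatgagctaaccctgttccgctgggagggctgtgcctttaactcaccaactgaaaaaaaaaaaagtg
Timp1, chrX:20869916-20870165, plus strand: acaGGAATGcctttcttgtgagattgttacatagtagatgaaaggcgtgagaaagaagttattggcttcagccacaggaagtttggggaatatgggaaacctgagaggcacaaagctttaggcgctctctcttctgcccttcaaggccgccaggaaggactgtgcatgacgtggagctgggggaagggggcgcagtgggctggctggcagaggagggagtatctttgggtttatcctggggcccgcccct
Spp1 held 1 match to the TATA box motif, 211 bases upstream of the start site, and 1 SMAD motif (on the opposite strand) at 34 bases. Tnc held 1 match to the TATA box motif at 126 bases, and Timp1 held 1 TEAD motif at 247 bases. Among 32851 RefSeq upstream windows of the same length, the TATA box was present in 12.4%, the SMAD motif in 17.1%, the TEAD motif in 12.6% and the AP-1 motif in 6.75%. Spp1 and Tnc each have a further start site in RefSeq. The start sites printed are those nearest to the start of the gene in GENCODE. The window of the other Tnc start, which overlaps the printed one, held 1 TATA box and 1 SMAD motif, and that of the other Spp1 start held none of the 4 motifs. These matches describe letters in a window and show no binding.

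Levels of different genes can be compared only per length of transcript. In CPM per kilobase of exon, decorin (Dcn) was the highest of the 39 in WT-CD hearts, at 163 ± 29.4 (SD, n = 5), followed by Timp3 at 95.3 ± 10.5, Sparc at 83.5 ± 16.7 and Ogn at 74.3 ± 5.52. The first value lay beyond the spread of the next, while Timp3, Sparc and Ogn lay within the spread of their neighbours. The lowest were Loxl4 at 0.234 ± 0.0941 and Tnc at 0.110 ± 0.0581 CPM per kilobase. The genes with the largest fold differences below, Spp1, Tnc and Timp1, held places 34, 39 and 27 of 39 in this order. The cells that made each transcript were not separated, and more fibroblasts cannot be told apart here from more RNA per fibroblast.

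On the control diet, estimates for most of these genes were higher in R403Q than in WT hearts, but none passed the test and 2 of the 7 mutants carried much of the difference. Of 39, 35 had a higher and 4 (Comp, Fmod, Thbs2 and Timp3) a lower estimate, with a median log2 fold change of 0.66 (1.585-fold), against 0.01 over all genes. None passed the adjusted threshold of 0.05 in edgeR's quasi-likelihood test (0 of 39), where 1.44% of all genes passed. The smallest adjusted p was 0.0725, for Dcn. At an unadjusted p under 0.05 there were 24 of 39, all higher, against 11.8% of all genes that were higher at this level. Under DESeq2's Wald test, which the study used, 5 of 39 passed, all higher (Tnc, Spp1, Mfap5, Dcn and Timp1), against a background of 3.5%. With the shared number of the mouse names as a factor 6 of 39 passed (Dcn, Lum, Loxl1, Mmp14, Fap and Meox1), against 3.55%. In 0 of 39 genes did all R403Q-CD mice lie above all WT-CD mice, which held for 1.12% of all genes.

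**Figure D1:**
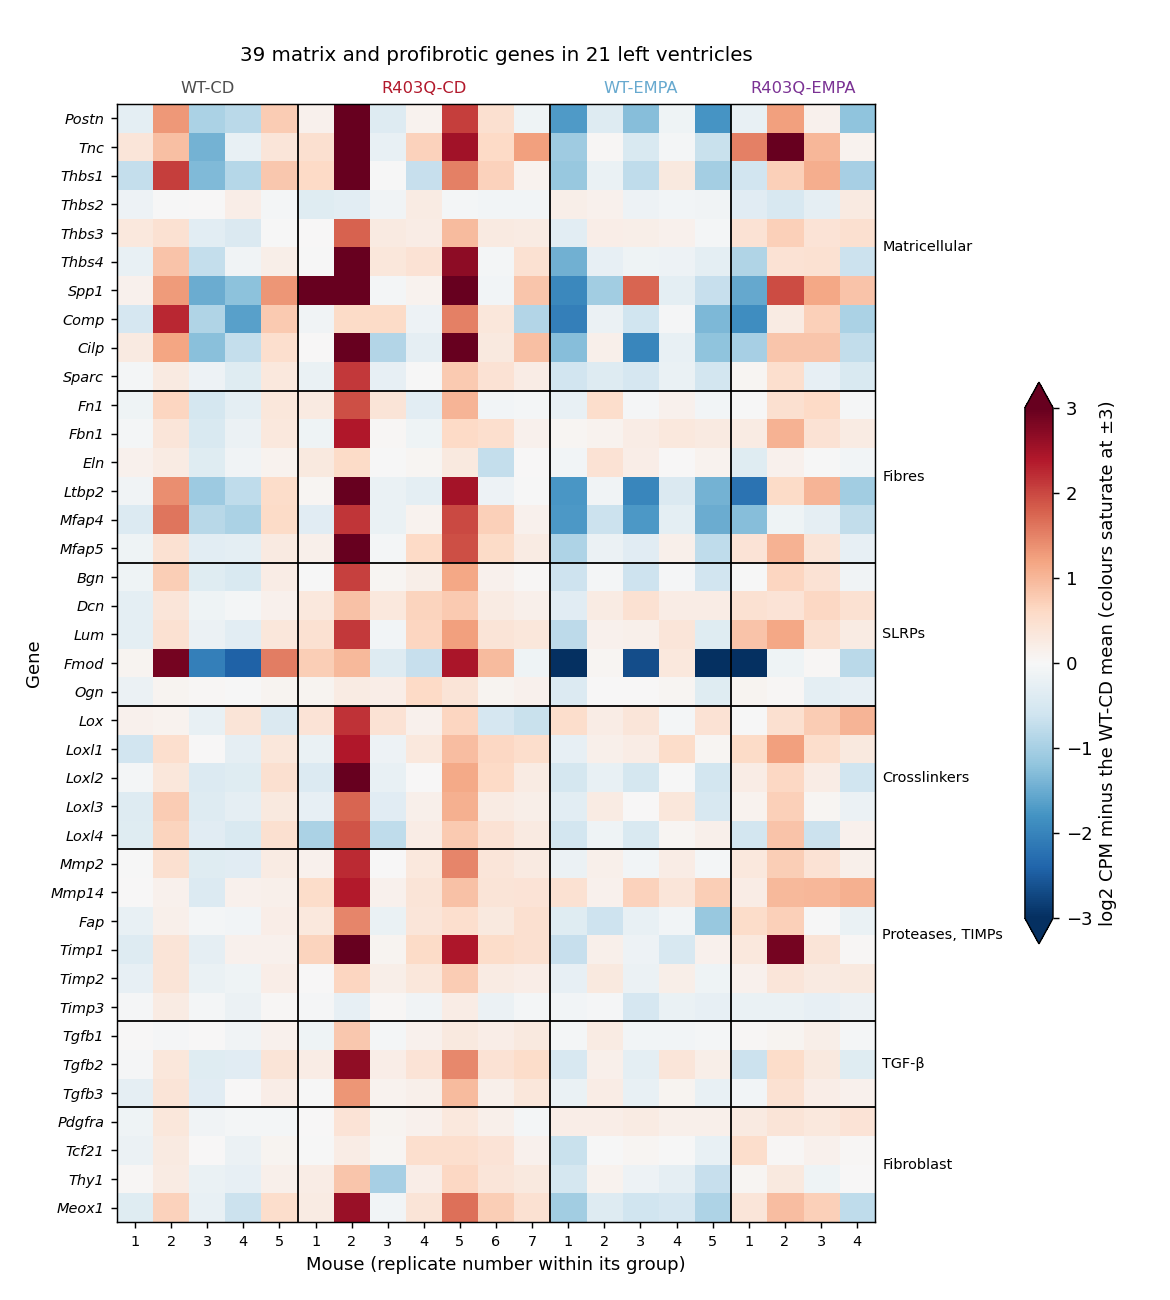
Each row is 1 of the 39 genes, grouped by role, and each column 1 of the 21 mice, grouped by genotype and diet and numbered within the group. Colour gives log2 CPM minus the mean of the WT-CD mice, and saturates at ±3. The column of R403Q-CD replicate 2 is dark red in most rows, with a median of 2.12, followed by replicate 5 of the same group with a median of 1.02.

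The difference on the control diet rested on few mice. The median over the 39 genes was 2.12 log2 units above the WT-CD mean in R403Q-CD replicate 2 and 1.02 in replicate 5, whereas the other 5 mutants on this diet ranged from -0.01 to 0.33. Without replicate 2 the median fold change fell to 0.28 (33 higher, 6 lower), and without WT-CD replicate 2 it was 0.79. Without replicates 2 and 5 it was 0.08 (26 higher, 13 lower), with 0 of 39 past the threshold and 2 at an unadjusted p under 0.05, both higher, against 7% of all genes. R403Q mice fed EMPA, compared with WT-EMPA mice, share no mouse with this comparison. Both comparisons came from the same fit, however, whose estimate of spread for each gene used all mice. On the EMPA diet 37 of 39 were higher in R403Q and 2 lower (Thbs2 and Eln). The median was 0.36 (1.28-fold) against 0.01 over all genes, and 0 of 39 passed the threshold, which 0.0578% of all genes passed. At an unadjusted p under 0.05 were 5 of 39, all higher (Tnc, Lum, Fap, Tcf21 and Meox1), against 8.14% of all genes. The R403Q-EMPA mice lay above all WT-EMPA mice for 3 of 39 genes (Tnc, Thbs3 and Pdgfra), and for 3.35% of all genes. The estimates were higher in mutants on both diets for 34 of 39 genes (87.2%), and for 37.7% of all genes.

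**Figure D2:**
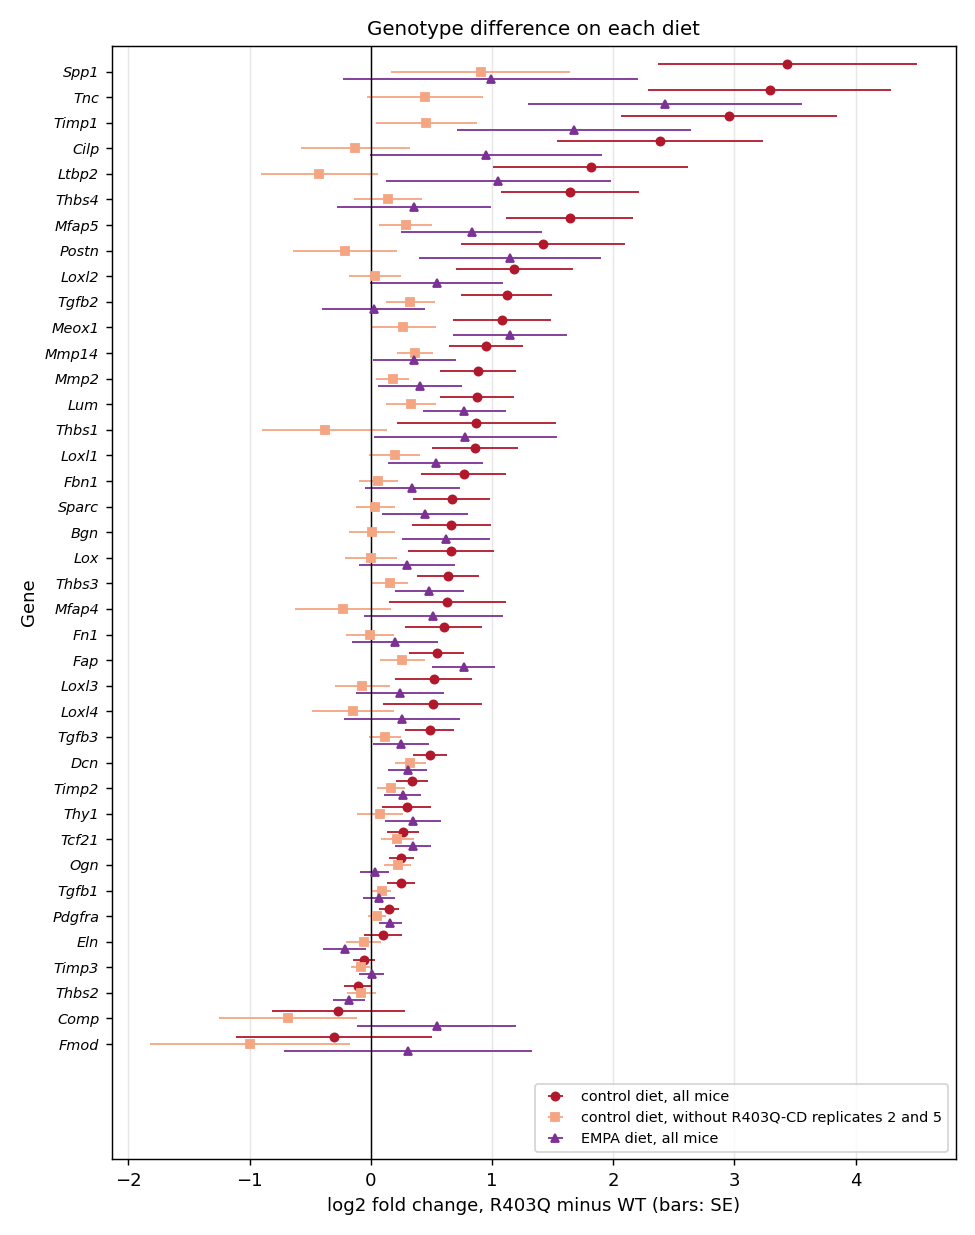
Points give the log2 fold change of R403Q against WT hearts for each of the 39 genes, with bars of 1 SE: on the control diet with all mice (circles), on the control diet without R403Q-CD replicates 2 and 5 (squares) and on the EMPA diet (triangles). The circles lie furthest right for Spp1 (3.44), Tnc (3.29) and Timp1 (2.95), and the squares of these genes fall to 0.91, 0.45 and 0.46.

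Averaged over both diets, the genotype effect passed the threshold for 7 of 39 genes, all higher in R403Q: Tnc, Fap, Dcn, Lum, Meox1, Timp1 and Mfap5. Over all genes 10.9% passed in either direction and 6.3% were higher. The median log2 fold change was 0.56 (36 higher, 3 lower), and 25 of 39 were higher at an unadjusted p under 0.05 against 16% of all genes. Without R403Q-CD replicates 2 and 5 the count was 8 of 39 (the same 7 and Mmp14; background 5.43%), although the median was 0.24. It was 10 without replicate 2 alone (background 6.56%). DESeq2 called 12 (background 8.85%), limma on the deposited variance-stabilized values 3 (background 5.48%) and the fit with the shared number as a factor 3 (background 2.58%). Fap and Lum were called in each of these fits. In limma Tnc (0.97), Timp1 (0.90), Mfap5 (0.85) and Meox1 (0.67) lost their calls, on the scale of the deposited values, with adjusted p of 0.0552 to 0.149. With the shared number as a factor Dcn (0.40), Tnc (2.40), Timp1 (1.81) and Mfap5 (1.08) lost their calls, with adjusted p of 0.0556 to 0.0978 in edgeR. The count was 16 without R403Q-CD replicate 3, the lowest mouse of its group for 14 of the genes, where the share of all genes called also rose, to 15.9%. It was 1, Dcn, without R403Q-EMPA replicate 2, the highest of its group for 24, where 7.35% of all genes passed. It was 3 without WT-CD replicate 1 (6.48% of all genes) or WT-EMPA replicate 1 (6.17%), and 4 without WT-CD replicate 4 (6.82%), R403Q-EMPA replicate 1 (5.46%) or R403Q-EMPA replicate 3 (6.5%).

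**Figure D3:**
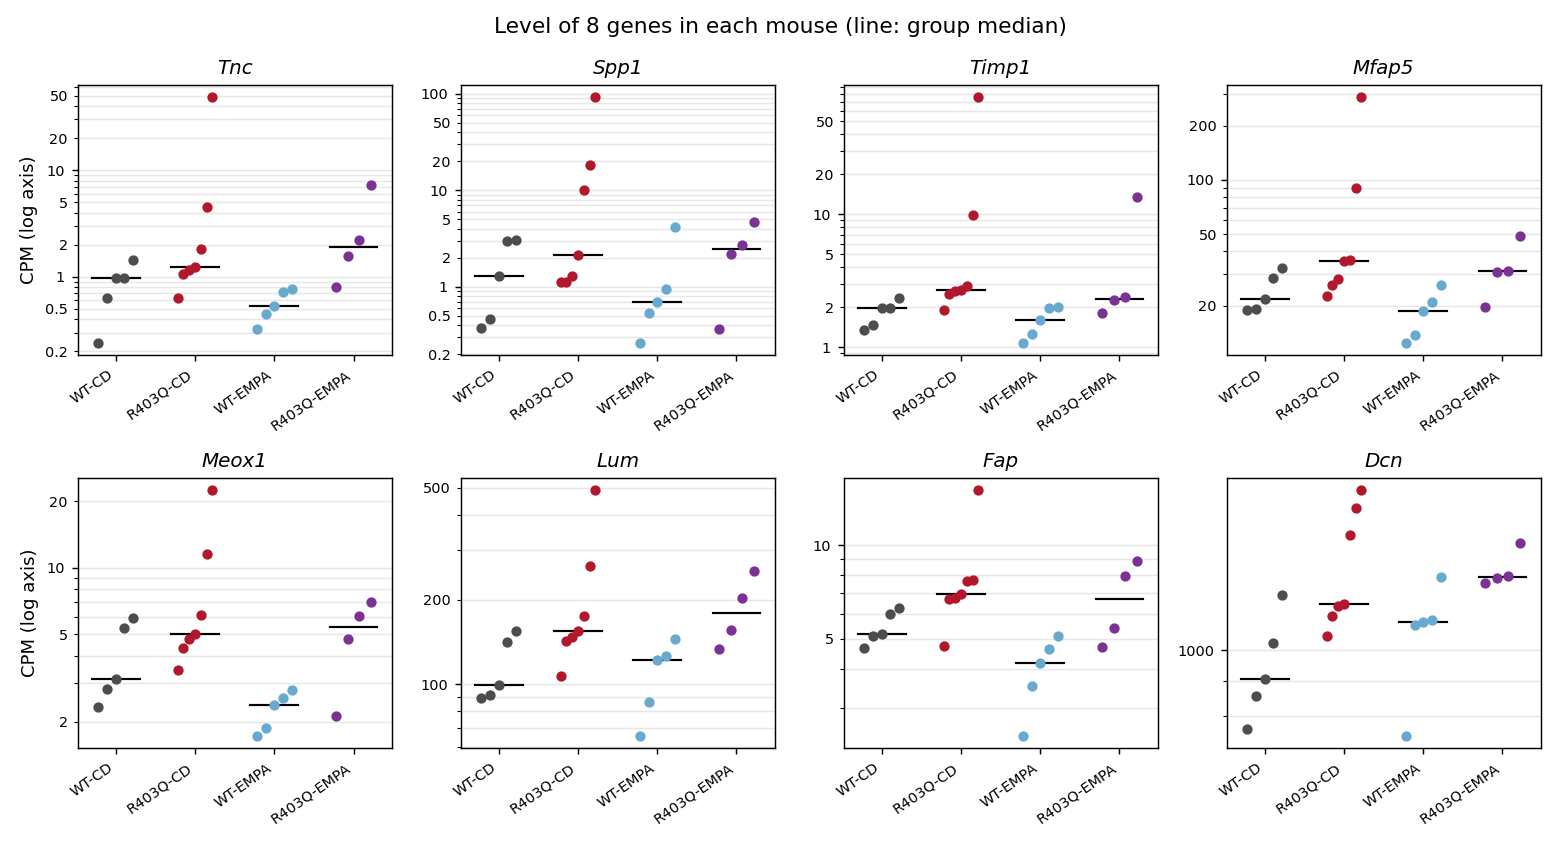
Every point is 1 mouse and the line is the median of its group (WT-CD n = 5, R403Q-CD n = 7, WT-EMPA n = 5, R403Q-EMPA n = 4); the vertical axis is CPM on a log scale, with its own range for each gene. The 8 genes are the 7 called for genotype and Spp1. For Tnc a single R403Q-CD mouse is at 48.5 CPM while the group median is 1.25.

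Matricellular proteins are secreted into the matrix without building its fibres, and modulate how cells attach and respond. Of 10, 8 were higher in R403Q-CD than in WT-CD (median 1.15, and -0.02 without R403Q-CD replicates 2 and 5), 9 were higher in R403Q-EMPA than in WT-EMPA (median 0.66), and 1, Tnc, passed in the average. Tenascin C (Tnc; ENSMUSG00000028364, chr4:63959785-64047015, GRCm38) is a glycoprotein of wounded and remodelling tissue. In WT-CD it was at 0.984, 1.45, 0.241, 0.632 and 0.973 CPM, in WT-EMPA at 0.322, 0.763, 0.531, 0.719 and 0.449, and in R403Q-EMPA at 2.22, 7.25, 1.56 and 0.806. The R403Q-CD mice ran from 0.635 through a median of 1.25 to 48.5. All R403Q-EMPA mice were above all WT-EMPA mice, and on the control diet the genotypes overlapped. The averaged genotype effect was 2.86 ± 0.75 (log2, SE; adjusted p = 0.0208, edgeR) and ran from 1.71 to 3.01 when single mice were left out. It lost the threshold without R403Q-EMPA replicate 2 (2.38). Within the control diet it was 3.29 ± 0.999 (adjusted p = 0.0807, edgeR), and 0.45 without R403Q-CD replicates 2 and 5.

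Osteopontin (Spp1; ENSMUSG00000029304, chr5:104435118-104441050, overlapped on the same strand by the predicted gene Gm42793), made by macrophages and activated fibroblasts, was at 1.29, 2.96, 0.379, 0.466 and 3.02 CPM in WT-CD. In R403Q-CD the values ran from 1.11 through 2.15 to 92, in WT-EMPA they were 0.263, 0.537, 4.12, 0.949 and 0.702, and in R403Q-EMPA 0.365, 4.73, 2.71 and 2.17. Above the WT-CD range were R403Q-CD replicates 1, 2 and 5, which had 9.99, 92 and 18.4 CPM and the other 4 mutants of the group 1.11 to 2.15, within the WT-CD range. The estimate on the control diet was 3.44 ± 1.07 (log2, SE; adjusted p = 0.0872, edgeR), and 0.91 without replicates 2 and 5. Thrombospondin 4 (Thbs4; ENSMUSG00000021702, chr13:92751590-92794818), a stress-induced glycoprotein of the heart, measured 12.3, 26.0, 8.81, 13.4 and 16.3 CPM in WT-CD and ran from 13.8 through 19.4 to 159 in R403Q-CD. It was 5.24, 12.1, 13.2, 12.9 and 11.8 in WT-EMPA and 7.62, 19.6, 19.8 and 9.21 in R403Q-EMPA. Again the groups overlapped, and R403Q-CD replicates 2 and 5, at 159 and 92.2 CPM, were the only mutants above the WT-CD range. The control-diet estimate was 1.64 ± 0.57 (adjusted p = 0.114, edgeR) and 0.14 without these mice.

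Thrombospondin 3 (Thbs3; ENSMUSG00000028047, chr3:89215180-89226837, with the opposite-strand gene Mtx1) showed a smaller difference. It was at 5.36, 5.89, 3.44, 3.16 and 4.26 CPM in WT-CD, at 3.45, 4.95, 4.88, 4.72 and 4.15 in WT-EMPA and at 5.83, 7.14, 5.77 and 6.03 in R403Q-EMPA, and ran from 4.32 through 5.16 to 14.9 in R403Q-CD. Every R403Q-EMPA mouse exceeded every WT-EMPA mouse, whereas on the control diet replicates 2 and 5, at 14.9 and 8.3 CPM, were the only mutants above the WT-CD range. The control-diet estimate was 0.64 ± 0.25, and 0.16 without these mice. The averaged effect was 0.56 ± 0.19 (adjusted p = 0.0595, edgeR), and its adjusted p was 0.0413 to 0.115 when single mice were left out. It passed without R403Q-CD replicate 1 (0.60), replicate 2 (0.39) or replicate 3 (0.59). The remaining matricellular genes did not pass in the fit of all mice in edgeR. Periostin (Postn), the marker of activated fibroblasts, was at 59.5 ± 41.3 CPM (SD, n = 5) in WT-CD and 159 ± 223 (n = 7) in R403Q-CD, where replicate 2 reached 648 and the group median was 53.4. Cilp, which binds TGF-β1, ran from 3.81 to 201 CPM in R403Q-CD and from 2.92 to 16.2 in WT-CD. It passed in the average with DESeq2 and, in edgeR, without R403Q-CD replicate 3. Sparc, a collagen-binding chaperone, was at 316 ± 63.3 CPM in WT-CD and 502 ± 387 in R403Q-CD. Thbs2, at 60.5 ± 5.33 and 56.2 ± 8.04 CPM in these groups, differed by less than the spread between mice. The cartilage protein Comp was highest of all mice in WT-CD replicate 2, at 38.6 CPM, a mouse whose summed level of 4 valve and tendon markers (84.8 CPM) was also the highest of the 21. Of these markers Chad (22.7) and Cytl1 (54.1) were highest there. Tnmd, at 1.01, was highest in R403Q-CD replicate 5 (4.53), and Scx, at 6.88, in R403Q-CD replicate 2 (18.4). The part of such tissue in the result was not tested.

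Fibre components form or decorate fibronectin and elastic fibres. All 6 had a higher estimate in R403Q-CD (median 0.70, and -0.03 without replicates 2 and 5), 5 of 6 were higher in R403Q-EMPA against WT-EMPA (median 0.43), and Mfap5 passed in the average. Microfibril-associated protein 5 (Mfap5; ENSMUSG00000030116, chr6:122505845-122529290) belongs to the fibrillin microfibrils. It was at 21.7, 32.4, 19.0, 19.3 and 28.4 CPM in WT-CD, at 12.4, 21, 18.7, 26.1 and 13.8 in WT-EMPA and at 31.3, 48.9, 30.9 and 19.7 in R403Q-EMPA, and ran from 22.7 through 35.2 to 288 in R403Q-CD. On the EMPA diet 3 of 4 mutants lay above all wild types, and on the control diet 4 of 7 did. The averaged effect was 1.24 ± 0.39 (adjusted p = 0.0457, edgeR), close to the threshold. It lost its call when any of 13 of the 21 mice was left out, all WT-CD mice among them (estimates 0.77 to 1.32 and adjusted p 0.0237 to 0.096 over the 21 fits), and kept it without R403Q-CD replicates 2 and 5, at 0.56. Fibrillin 1 (Fbn1) was at 42.7 ± 10.1 CPM in WT-CD and 72.5 ± 66.2 in R403Q-CD, fibronectin (Fn1) at 74.8 ± 25.6 and 113 ± 77.1, and Ltbp2, a fibrillin-associated protein, at 10.4 ± 7.56 and 36.7 ± 60.3. Elastin (Eln), with 56.2 ± 8.94 and 60.2 ± 15.1 CPM, differed by less than the spread between mice.

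Small leucine-rich proteoglycans bind collagen fibrils and regulate their diameter. Decorin and lumican both rose in R403Q averaged over diets, and 4 of 5 genes were higher in R403Q-CD (median 0.49, and 0.22 without replicates 2 and 5) and 5 of 5 in R403Q-EMPA (median 0.31). Decorin (Dcn; ENSMUSG00000019929, chr10:97479609-97518143), which also binds TGF-β, had the smallest fold difference of the 7 called genes. Its levels were 765, 1208, 856, 909 and 1027 CPM in WT-CD, 747, 1108, 1283, 1103 and 1091 in WT-EMPA and 1281, 1257, 1443 and 1288 in R403Q-EMPA, and ran from 1050 through 1171 to 1726 in R403Q-CD. The 3 highest R403Q-CD mice (1484, 1628 and 1726) lay above every wild-type mouse, and the lowest mutant of either diet lay above 4 of 5 WT-CD mice. Dcn was 1.32-fold higher (log2 0.40 ± 0.11; adjusted p = 0.0241, edgeR). The estimate ran from 0.34 to 0.45 when single mice were left out, lost its call without R403Q-EMPA replicate 3 (0.37), and was 0.31 without R403Q-CD replicates 2 and 5. On the control diet alone it was 0.49 ± 0.14 (adjusted p = 0.0725, edgeR), and on the EMPA diet 0.31 ± 0.16.

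Lumican (Lum; ENSMUSG00000036446, chr10:97565128-97572703) was at 91.3, 155, 99.5, 89.5 and 141 CPM in WT-CD, at 65.4, 122, 126, 144 and 86.5 in WT-EMPA and at 202, 252, 156 and 133 in R403Q-EMPA, and ran from 107 through 155 to 489 in R403Q-CD. Both genotypes overlapped on each diet, with 3 of 4 R403Q-EMPA mice above all WT-EMPA mice. The averaged effect was 0.82 ± 0.23 (1.77-fold; adjusted p = 0.0274, edgeR), with estimates of 0.64 to 0.89 over the fits without single mice. It was lost without WT-CD replicate 1 or 4 (0.79 and 0.78), WT-EMPA replicate 1 or 5 (0.76 and 0.79), or R403Q-EMPA replicate 1 or 2 (0.80 and 0.73), with adjusted p up to 0.0645. Osteoglycin (Ogn; ENSMUSG00000021390, chr13:49608046-49624501, with the opposite-strand gene Cenpp across it) met the rule for the effect of EMPA. It was at 167, 202, 195, 189 and 201 CPM in WT-CD, at 142, 193, 190.3, 198 and 148 in WT-EMPA and at 202, 195, 155 and 159.9 in R403Q-EMPA, and ran from 199.8 through 218 to 289.8 in R403Q-CD. Apart from 1 mouse at 202 CPM the R403Q-EMPA mice lay below the lowest R403Q-CD mouse. The difference was -0.35 ± 0.11 (unadjusted p = 0.00543, adjusted p = 0.213, edgeR) and did not pass. It was -0.33 without R403Q-CD replicates 2 and 5, neither of which was the highest mouse for this gene. Biglycan (Bgn) was at 282 ± 102 CPM in WT-CD and 448 ± 315 in R403Q-CD. Fibromodulin (Fmod) ran from 0.0365 CPM in R403Q-EMPA replicate 1 to 36.15 in WT-CD replicate 2. That mouse had the highest sum of valve and tendon markers, of which Chad and Cytl1 were singly highest there and Tnmd and Scx were not.

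Lysyl oxidases crosslink collagen and elastin. None of the 5 passed in any comparison of all mice in edgeR (0 of 5). Loxl1 passed on the control diet with the shared number of the mouse names as a factor, and in the average without R403Q-CD replicate 3. All 5 were higher in R403Q-CD than in WT-CD (median 0.66, and 0.0013 without replicates 2 and 5) and in R403Q-EMPA than in WT-EMPA (median 0.30), and all 5 were lower in R403Q-EMPA than in R403Q-CD (median -0.38), whereas without replicates 2 and 5 all 5 were higher (median 0.20). Loxl1 (0.86 ± 0.35, unadjusted p = 0.0231) and Loxl2 (1.18 ± 0.48, unadjusted p = 0.0232) had the smallest p in edgeR on the control diet, and were at 0.20 and 0.03 without replicates 2 and 5. Loxl2 reached 92.4 CPM in R403Q-CD replicate 2, and the 5 mice of the group other than replicates 2 and 5 ran from 7.79 to 15.8, near the WT-CD range of 7.88 to 14.6. Lox itself was at 10.3 ± 2.26 CPM in WT-CD and 16.2 ± 13.5 in R403Q-CD, and the mean of those 5 other mice was 1.005 times that of WT-CD. Loxl3 and Loxl4 were low, at 3.85 ± 1.52 and 0.986 ± 0.397 CPM in WT-CD.

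Among proteases and inhibitors, 5 of 6 were higher in R403Q-CD (median 0.71, and 0.22 without replicates 2 and 5) and 6 of 6 in R403Q-EMPA (median 0.38), and Timp1 and Fap passed in the average. Timp1 (ENSMUSG00000001131, chrX:20870166-20874735, within the opposite-strand gene Syn1), an inhibitor of metalloproteinases induced in fibrosis, was at 1.36, 2.36, 1.48, 1.96 and 1.97 CPM in WT-CD and at 1.08, 2.01, 1.59, 1.27 and 1.97 in WT-EMPA. It was at 2.26, 13.5, 2.38 and 1.82 in R403Q-EMPA and ran from 1.91 through 2.68 to 75.9 in R403Q-CD. In R403Q-CD 6 of 7 mice exceeded the highest WT-CD mouse, most of them by little: the 5 mice other than replicates 2 and 5 averaged 1.38 times the WT-CD mean, against 41.5 and 5.43 times in those 2. The averaged effect was 2.31 ± 0.65 (adjusted p = 0.0287, edgeR), and 1.06, still past the threshold, without both mice. It was lost without WT-CD replicate 1 (2.27), WT-EMPA replicate 1 (2.26) or R403Q-EMPA replicate 2 (1.70).

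Fibroblast activation protein (Fap; ENSMUSG00000000392, chr2:62500943-62574075), a surface peptidase of activated fibroblasts, was at 4.68, 6.02, 5.20, 5.12 and 6.28 CPM in WT-CD, at 4.18, 3.53, 4.65, 5.12 and 2.44 in WT-EMPA and at 7.99, 8.91, 5.41 and 4.71 in R403Q-EMPA, and ran from 4.75 through 6.95 to 15.0 in R403Q-CD. Of the mutants on the control diet, 6 of 7 were above all WT-CD mice, and 3 of 4 on EMPA were above all WT-EMPA mice. Fap was 1.57-fold higher in R403Q (log2 0.65 ± 0.17; adjusted p = 0.0224, edgeR). The estimate was 0.53 to 0.72 over the fits without single mice, 0.51 without R403Q-CD replicates 2 and 5, and lost its call without R403Q-EMPA replicate 1 (0.61) or 2 (0.57). Within the EMPA diet it was 0.77 ± 0.26 (unadjusted p = 0.00806, adjusted p = 0.194, edgeR), the smallest p of the 39 there.

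Mmp14, a membrane-bound collagenase that activates Mmp2, and Mmp2, a gelatinase, did not pass in the fit of all mice. Mmp14 (ENSMUSG00000000957, chr14:54431612-54445364) was at 8.89, 9.63, 6.57, 9.59 and 9.80 CPM in WT-CD, at 12.0, 9.70, 14.3, 11.3 and 14.7 in WT-EMPA and at 10.3, 17.2, 17.7 and 18.5 in R403Q-EMPA, and ran from 9.68 through 11.8 to 46.1 in R403Q-CD. All but 1 R403Q-CD mouse were above the WT-CD range. The control-diet estimate was 0.95 ± 0.31 (adjusted p = 0.0972, edgeR) and the average 0.66 ± 0.23 (adjusted p = 0.0666, edgeR). The former passed without R403Q-CD replicate 3 (1.05) and with the shared number of the mouse names as a factor (0.96). The average passed without R403Q-CD replicate 2 (0.40), without replicate 3 (0.70) and without replicates 2 and 5 (0.36). Mmp2 (ENSMUSG00000031740, chr8:92827291-92853420) was at 66.8, 93.5, 52.5, 52.7 and 79.7 CPM in WT-CD, at 59.1, 74.9, 63.8, 78.2 and 65.1 in WT-EMPA and at 84.1, 112, 90.6 and 75.3 in R403Q-EMPA, and ran from 68.1 through 83.3 to 316 in R403Q-CD. On the control diet, R403Q-CD replicates 2 and 5 alone exceeded the WT-CD range, and R403Q-EMPA replicate 2 also lay above it. The control-diet estimate was 0.89 ± 0.31 (adjusted p = 0.121, edgeR) and 0.18 without replicates 2 and 5, and the averaged effect passed without R403Q-CD replicate 3. Timp2 (ENSMUSG00000017466, chr11:118301069-118355740, overlapped on the same strand by Cep295nl, so that its count is less certain) was at 111, 171, 114, 121 and 150.3 CPM in WT-CD, at 111, 162, 117, 148 and 119.5 in WT-EMPA and at 144, 168, 157 and 162 in R403Q-EMPA, and ran from 133 through 157 to 222 in R403Q-CD. The groups overlapped on both diets, and the averaged effect was 0.30 ± 0.10 (adjusted p = 0.0556, edgeR). It passed without WT-CD replicate 2 (0.35), WT-EMPA replicate 2 (0.34), or R403Q-CD replicate 1 (0.33) or 3 (0.32). Timp3, the matrix-bound inhibitor, was at 776 ± 85.7 CPM in WT-CD and 747 ± 82.4 in R403Q-CD and differed by less than the spread between mice.

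The 3 TGF-β ligands were all higher in R403Q-CD than in WT-CD, each at an unadjusted p under 0.05, and 0 of 3 passed in any comparison in edgeR (unadjusted p 0.0069 for Tgfb2, 0.0424 for Tgfb1 and 0.025 for Tgfb3). Their median was 0.49, and 0.12 without R403Q-CD replicates 2 and 5, where Tgfb1 and Tgfb3 had estimates of 0.09 ± 0.08 and 0.12 ± 0.13. Tgfb2 (ENSMUSG00000039239, chr1:186622792-186705989) was at 10.2, 13.1, 8.12, 8.19 and 13.7 CPM in WT-CD, at 7.49, 11.6, 8.43, 13.4 and 11.8 in WT-EMPA and at 6.60, 15.3, 12.8 and 8.02 in R403Q-EMPA, and ran from 12.0 through 14.2 to 66.3 in R403Q-CD. On the control diet the genotypes overlapped, and on EMPA the mutants spread over and beyond the wild-type range. The estimates were 1.12 ± 0.38 on the control diet (adjusted p = 0.106, edgeR) and 0.02 ± 0.43 on EMPA. Without R403Q-CD replicates 2 and 5, which had 66.3 and 28.5 CPM, the former was 0.33 ± 0.20. Its interaction, the effect of EMPA in R403Q minus that in WT, was -1.10 ± 0.57 (unadjusted p = 0.0657, edgeR), the smallest p of the 39 in that test, and -0.31 ± 0.30 without these mice. Tgfb1 was at 25.2 ± 1.46 CPM in WT-CD and 29.9 ± 6.91 in R403Q-CD, and Tgfb3 at 15.9 ± 3.46 and 22.3 ± 8.91.

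All 4 genes that mark or drive fibroblasts were higher in R403Q-CD (median 0.28, and 0.15 without replicates 2 and 5), and Meox1 passed in the average. Pdgfra and Tcf21, which mark resident cardiac fibroblasts, had control-diet estimates of 0.15 ± 0.08 and 0.27 ± 0.13, and Meox1, a homeobox regulator of fibroblast activation, 1.08 ± 0.41. Without R403Q-CD replicates 2 and 5 these estimates were 0.05, 0.22 and 0.27. Meox1 (ENSMUSG00000001493, chr11:101877510-101894374, with the antisense gene Gm11551) was at 2.82, 5.89, 3.13, 2.33 and 5.31 CPM in WT-CD, at 1.73, 2.8, 2.39, 2.56 and 1.88 in WT-EMPA and at 4.74, 7.03, 6.07 and 2.12 in R403Q-EMPA, and ran from 3.44 through 5.01 to 22.4 in R403Q-CD. On EMPA 3 of 4 mutants were above all wild types. Its averaged effect was 1.11 ± 0.31 (2.165-fold; adjusted p = 0.0274, edgeR) and 0.71 without R403Q-CD replicates 2 and 5. Within the EMPA diet, whose group means those mice do not enter, it was 1.15 ± 0.47. The standard error there still rests on the spread shared by all mice. It was lost without WT-CD replicate 1 or 4 (1.07 and 1.05), WT-EMPA replicate 1 (1.07), or R403Q-EMPA replicate 2 or 3 (1.01 and 1.05), with adjusted p up to 0.0622. Tcf21 (ENSMUSG00000045680, chr10:22817281-22820174, with the antisense gene Gm10824) was at 8.75, 11.9, 10.1, 8.69 and 10.4 CPM in WT-CD, at 6.21, 9.81, 10.3, 9.81 and 8.51 in WT-EMPA and at 14.3, 10.1, 10.8 and 10.1 in R403Q-EMPA, and ran from 9.86 through 11.6 to 14.1 in R403Q-CD. R403Q-CD replicate 2, at 11.6 CPM, did not stand out for this gene. The averaged effect was 0.30 ± 0.10 (adjusted p = 0.0504, edgeR), on the edge of the threshold, and it passed without any 1 of 6 mice (WT-CD replicate 2, WT-EMPA replicate 3, R403Q-CD replicate 1, 2 or 3, or R403Q-EMPA replicate 4; estimates 0.30 to 0.34). Pdgfra was at 68.3 ± 1.98 CPM in WT-EMPA and 76.4 ± 3.78 in R403Q-EMPA, without overlap. Thy1 was at 9.35 ± 1.39 CPM in WT-CD and 11.5 ± 3.72 in R403Q-CD.

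In R403Q hearts, 38 of 39 genes were lower on EMPA than on the control diet and 1, Pdgfra, was higher. The median log2 fold change was -0.38, against -0.0036 over all genes. None passed the threshold (0 of 39; 0.0116% of all genes passed), and 9 of 39 had an unadjusted p under 0.05, against 13.4% of all genes: Thbs4, Spp1, Cilp, Ltbp2, Mfap4, Mfap5, Ogn and Tgfb2 were lower and Pdgfra higher. Thbs4, at -1.77 ± 0.62 (unadjusted p = 0.00961, adjusted p = 0.244, edgeR), was -0.27 without R403Q-CD replicates 2 and 5. Without R403Q-EMPA replicate 2 the median over the 39 genes was -0.60, and without R403Q-CD replicate 2 it was -0.09 (11 higher, 28 lower). Without R403Q-CD replicates 2 and 5 it turned to 0.10, with 25 genes higher and 14 lower on EMPA. At an unadjusted p under 0.05 were then 6 higher and 1 lower, against 10.8% of all genes in either direction. The direction of the median thus depended on these mice of the control diet. They were left out because they were high for these same genes, which raises the estimates on EMPA by construction. The counts without them are therefore no test. Of the 7 genes called for genotype, all had a lower estimate on EMPA: Dcn at -0.02 ± 0.15, Lum at -0.19 ± 0.32, Fap at -0.24 ± 0.24, Meox1 at -0.72 ± 0.43, Mfap5 at -1.20 ± 0.56, Timp1 at -1.49 ± 0.88 and Tnc at -1.51 ± 0.95. Without R403Q-CD replicates 2 and 5 the estimates of all 7 were above 0, from 0.04 for Fap to 1.33 for Tnc.

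**Figure D4:**
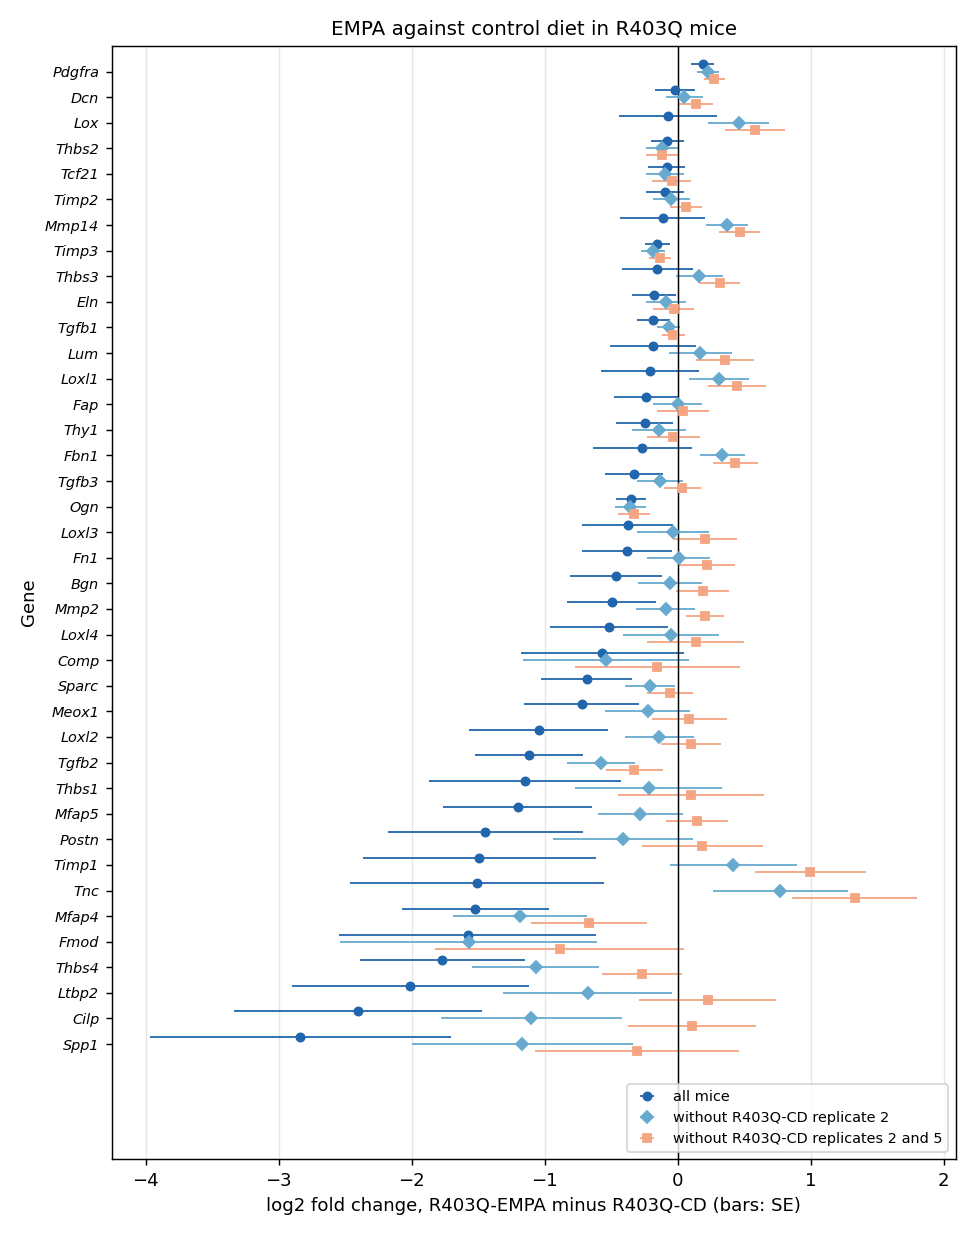
Points give the log2 fold change of R403Q-EMPA against R403Q-CD hearts for the 39 genes, with bars of 1 SE, for all mice (circles), without R403Q-CD replicate 2 (diamonds) and without replicates 2 and 5 (squares). The circles are left of 0 for 38 of 39 genes and the squares right of 0 for 25.

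In wild-type hearts the EMPA diet went with lower estimates for 31 of 39 genes and higher for 8 (median -0.21, against -0.0036 over all genes), and 0 of 39 passed, where 0.0289% of all genes did. At an unadjusted p under 0.05 were 4 of 39, all lower (Mfap4, Fmod, Timp3 and Comp), against 5.08% of all genes that were lower. All 4 were highest in their group in WT-CD replicate 2, Mfap4, Fmod, Comp and Timp3 being at 45.9, 36.15, 38.6 and 913.6 CPM. Without that mouse the median was -0.09. No interaction passed (0 of 39, and 0% of all genes in edgeR; DESeq2 also called 0 genes), and 0 of 39 had an unadjusted p under 0.05, against 3.28% of all genes. The median interaction was -0.24. It was -0.46 without WT-CD replicate 2, the highest of its group for 30 of the genes, and turned to 0.16 without R403Q-CD replicate 2 and to 0.30 without replicates 2 and 5. In the last of these fits 4 of 39 genes (Postn, Tnc, Bgn and Meox1) had an unadjusted p under 0.05, all higher, against 1.71% of all genes, and none passed the adjusted threshold. Replicates 2 and 5 were left out because they were high for these same genes, which raises the interaction by construction. The count is therefore no test of an interaction. Standard errors of the interaction ran from 0.12 (Pdgfra) to 1.6 (Spp1) over the 39 genes, with a median of 0.48. The comparisons between diets and between genotypes share mice, so that their estimates are not independent of each other.

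**Figure D5:**
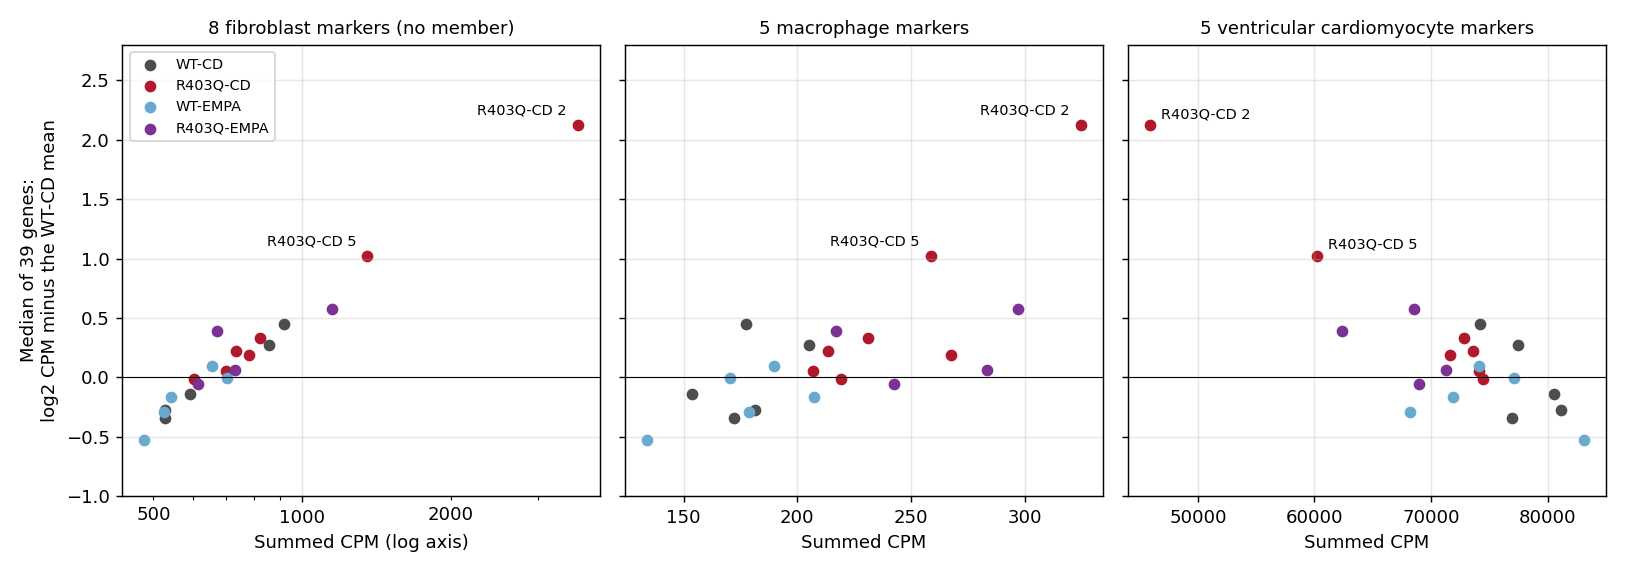
Each point is 1 of the 21 mice. The vertical axis is the median over the 39 genes of log2 CPM minus the WT-CD mean, and the horizontal axes are the summed CPM of 8 fibroblast markers (log axis), 5 macrophage markers and 5 ventricular cardiomyocyte markers. R403Q-CD replicate 2 lies at 3614, 324.7 and 45890 CPM, the highest of the first 2 sums and the lowest of the last.

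Some markers of other cell types differed in the same mice. The sum of 8 fibroblast markers outside the 39 genes, collagens included, was 3614 CPM in R403Q-CD replicate 2 and ran from 603 to 3614 in R403Q-CD (median 781), from 528 to 921 in WT-CD, from 479 to 705 in WT-EMPA and from 615 to 1147 in R403Q-EMPA. The members did not move alike in that mouse. The collagens Col1a1, Col1a2 and Col3a1, at 680.9, 816.8 and 1549 CPM, and Pcolce, at 129.9, were the highest of all 21 mice, Dpt and Abca8a were next to highest, at 169.8 and 190.9, Ddr2 was at 57.6, and Scara5, at 18.7, was the lowest of all. The macrophage sum was 207 to 325 CPM in R403Q-CD, 154 to 205 in WT-CD, 134 to 207 in WT-EMPA and 217 to 297 in R403Q-EMPA, and all 5 of its genes (Adgre1, Csf1r, Cd68, C1qa and Mrc1) rose with genotype averaged over diets (adjusted p 0.00145 to 0.0105, edgeR). The ventricular cardiomyocyte sum was lowest in R403Q-CD replicate 2 (45890 CPM), as were Myh6, Myl2, Myl3 and Tnni3 singly, whereas Actc1, at 15780, was among the 3 highest of all mice. The atrial sum was 722 CPM in that mouse and 10.9 to 722 in R403Q-CD, 8.45 to 294 in WT-CD, 4.28 to 84.3 in WT-EMPA and 4.85 to 56.0 in R403Q-EMPA, with the defining gene Bmp10 at 0 in 14 of 21 libraries. Epicardial and smooth muscle markers were highest in R403Q-CD replicate 5, at 56.6 and 855 CPM, against at most 24.3 and 644 in the other 3 groups. The exceptions within these lists were Wt1, at 6.14 CPM in that mouse and highest in R403Q-CD replicate 7 (8.88), and Acta2, at 414.8 and highest in R403Q-CD replicate 3 (421.9). Pericyte and endothelial sums of R403Q-CD replicate 2, at 730.2 and 757.5 CPM, lay within the range of the other mice, although the pericyte genes Pdgfrb (91.2) and Cspg4 (74.8) were the highest of all 21 there. Its Schwann cell sum, at 4.33, lay within that range too, and its lymphocyte sum, at 0.352, was the lowest. Between R403Q-EMPA and R403Q-CD, 0 of these marker genes passed in edgeR. At an unadjusted p under 0.05 in edgeR, 3 of 4 atrial markers had lower estimates on EMPA. So did 2 of 4 epicardial and 2 of 4 smooth muscle markers, whereas 4 of 4 red cell genes had higher ones (0.49 to 0.83). Fibroblast markers went both ways, Scara5 (0.48) and Ddr2 (0.26) being higher and Col3a1 (-1.51) lower. The endothelial marker Kdr (0.40) was higher. Over all genes 13.4% reached this level in either direction. The red cell sum was 844 to 1670 CPM in R403Q-CD and 1168 to 2576 in R403Q-EMPA. The part of these cell types in the results above was not tested.

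Other genes of the pathway, from lists written with earlier results of these data known, passed in small numbers, as counted here. Of 20 other TGF-β pathway genes, 3 rose and 1 fell with genotype averaged over diets, against the 10.9% of all genes that passed. Bambi, a pseudoreceptor that damps TGF-β signalling, was higher by 0.51 ± 0.11 (adjusted p = 0.00965, edgeR), Tgfbi, a TGF-β-induced matrix protein, by 0.39 ± 0.09 (adjusted p = 0.0121) and Nrros, which holds latent TGF-β on macrophages and microglia, by 0.39 ± 0.09 (adjusted p = 0.0139). Ltbp1, which stores latent TGF-β in the matrix, was lower, at -0.22 ± 0.06 (adjusted p = 0.024, edgeR). Of 27 enzymes and chaperones of matrix maturation 1 (Pcolce2) rose and 1 fell, P4ha2, a prolyl hydroxylase of collagen, at -0.26 ± 0.05 (adjusted p = 0.00459, edgeR). Of 32 other matrix glycoproteins and proteoglycans 5 rose and 0 fell (Mgp, Matn2, Aspn, Dpt and Ecm1, named after their values were seen; Dpt is also among the fibroblast markers). Of 14 genes of fibroblast activation, 13 of which could be tested, 2 rose (Cthrc1 and Runx1, likewise named afterwards). In the other 5 comparisons 0 genes of these 4 lists passed in edgeR.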

How the data were processed

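Polyadenylated RNA of 21 left ventricles was sequenced in pairs. The authors aligned the reads to mm10 with STAR 2.6.0c, checked them with FastQC 0.11.7 and made the deposited counts with featureCounts (Subread 1.6.2) over Ensembl genes, with uniquely aligned proper pairs and the setting "same strand", and left out mitochondrial genes. Overlapping genes make counts less certain. On the same strand such overlap is annotated for Spp1, Timp2, Loxl2, Loxl3 and Pdgfra (a microRNA in the last 3). If that setting does not mean counting by strand, which its wording leaves unclear, overlap on the opposite strand matters too (Tnc, Thbs1, Thbs3, Fn1, Fbn1, Eln, Ltbp2, Mfap4, Ogn, Lox, Loxl2, Loxl3, Timp1, Timp3, Tgfb2, Tgfb3, Pdgfra, Tcf21 and Meox1). The deposited log2 values are the authors' variance-stabilizing transformation in DESeq2 1.32.0. Both have 1 column per mouse.

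From the counts, genes were kept by filterByExpr (minimum count 10), scaled by TMM factors, and tested in 1 fit of 4 groups with edgeR 4.0.16 (R 4.3.3; glmQLFit and glmQLFTest, Benjamini-Hochberg adjustment over all 17309 genes, threshold 0.05). The contrasts were genotype within each diet, diet within each genotype, the interaction, and genotype averaged over diets. Differences are R403Q minus WT or EMPA minus CD on the log2 scale, with standard errors derived from the F statistic. Alternatives were DESeq2 1.42.0, limma 3.58.1 on the log2 values, library size alone, no filter, fewer groups, the number shared by mouse names as a factor (what it marks is not given in the labels) and each mouse left out. Leaving out R403Q-CD replicates 2 and 5 together was chosen after seeing the data, because both were high for the genes described here. It lowers R403Q-CD for these genes by construction, and the share of all genes is then not a like background. The steps were tested on simulated data. Positions are from the GENCODE annotation of GRCm38.

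The 39 genes and the other lists were chosen with earlier results of these data known. Genes described mouse by mouse are those that passed a threshold in a contrast or had an unadjusted p under 0.01 (16 genes), and at most 3 per direction and comparison were named from the other lists, beyond which genes named after their values were seen are marked as such. Replicates are numbered in the order of deposit.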

Additional observations from a re-analysis of the deposited data

Results flagged for a closer look

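Within each group the highest and the lowest mouse were compared with the rest of the group by Dixon's ratio. It was exceeded in 33 of 156 groups of values (21.2%). The rate of about 1 in 20 given by chance holds for independent, normally distributed values. Genes read in the same mice are not independent, so the 2 rates cannot be set against each other. R403Q-CD replicate 2 accounted for 23, each as the highest of its group. Among matricellular genes its CPM was 647.8 for Postn, 48.49 for Tnc, 134.8 for Thbs1, 14.86 for Thbs3, 91.98 for Spp1, 200.9 for Cilp and 1352 for Sparc. Among fibre genes and proteoglycans it was 275.3 for Fn1, 220.9 for Fbn1, 169.1 for Ltbp2, 287.9 for Mfap5, 1110 for Bgn and 489.3 for Lum. For the lysyl oxidases it was 45.86 for Lox, 85.11 for Loxl1, 92.37 for Loxl2 and 3.622 for Loxl4. For the others it was 46.11 for Mmp14, 14.98 for Fap, 75.87 for Timp1, 43.88 for Tgfb1, 66.33 for Tgfb2 and 22.44 for Meox1.

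R403Q-CD replicate 5 was the highest of its group for Comp (22.9 CPM) and Fmod (27.13). In WT-EMPA, replicate 1 was lowest for Thbs4 (5.239), replicate 3 highest for Spp1 (4.117) and replicate 2 highest for Tgfb1 (29.69). In WT-CD, replicate 3 was lowest for Mmp14 (6.573) and replicate 2 highest for Pdgfra (76.56). In R403Q-EMPA, replicate 3 was highest for Dcn (1443), replicate 1 lowest for Mmp14 (10.28) and replicate 2 highest for Timp1 (13.48).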

How the results depend on the processing

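For R403Q-CD against WT-CD the count of genes past the threshold moved from 0 to 5 with DESeq2 and 6 with the shared number of the mouse names as a factor, and was 0 to 6 when single mice were left out. The 6 came without R403Q-CD replicate 3, where the share of all genes called was 6.02% in place of 1.44%. The median fell to 0.076 without R403Q-CD replicates 2 and 5, and the median interaction moved from -0.24 to 0.30 there. Averaged over diets, the count moved from 7 to 12 with DESeq2, 3 with limma and 3 with the shared number of the mouse names as a factor, and was 1 to 16 when single mice were left out. The causes were not tested. Alternative values of single genes were counted only where the gene passed the threshold or had an unadjusted p under 0.01 in edgeR. Of these 548 values, 473 kept their direction and side of the threshold, 39 lost the threshold, 36 gained it and 0 reversed. Other comparisons are not in this count, and directions did turn there. For EMPA in R403Q hearts, the 7 genes called for genotype turned from below to above 0 without R403Q-CD replicates 2 and 5. Over all genes, the 250 called for R403Q-CD against WT-CD were 982 with DESeq2, 1128 with the shared number of the mouse names as a factor, 98 without the WT-EMPA group and 28 with only the 2 groups compared, and the 1883 called in the average were 944 with the shared number of the mouse names as a factor. DESeq2 called 151, 110 and 304 genes for EMPA in R403Q, EMPA in WT and genotype on EMPA, where edgeR called 2, 5 and 10, and the last was 123 with only the 2 groups compared. No paired analysis was possible because the labels give no replicate numbers, and the number shared by mouse names does not match mice 1 to 1. The factor above compares genotypes within that number. Each group held 4 to 7 mice and each library at least 23491535 counts. A single mouse could carry a fold change of a low gene such as Tnc and also of a high one such as Sparc. Sparc was at 1352 CPM in R403Q-CD replicate 2 and at 536.8 in the next mouse of that group.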
